A study of Mus musculus with 2 samples.

Results

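Ribosomal protein genes were followed across the cell types of the infarcted mouse brain. The genes were chosen by symbol: those named Rpl or Rps followed by a number, the 3 acidic stalk genes Rplp0, Rplp1 and Rplp2, and Rpsa, without pseudogene names, where at least 100 UMIs (unique molecular identifiers, each standing for 1 captured RNA) were counted over both libraries. Of 31253 features, 83 symbols matched and 81 were kept, all of them protein-coding gene models. The genes just inside the minimum were Rpl39l with 421 UMIs and Rpl36 with 6041, and those just outside were Rpl3l with 37 and Rpl10l with 0. Together the 81 genes held 8090308 UMIs, 5.84% of all UMIs.

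The cells came from infarcted brain tissue of mice, taken 3 days after transient middle cerebral artery occlusion (tMCAO), a model of ischaemic stroke. A single BD Rhapsody single-cell library came from flox mice, which the design text calls WT, and a single one from conditional knockouts (cKO) for Hilpda, a lipid droplet protein induced by low oxygen. The sources used here do not name the Cre driver, the deleted part of Hilpda, strain, sex, age or number of animals. The flox library held 8593 barcodes and 67864602 UMIs, the cKO library 7382 barcodes and 70665440 UMIs, and 56 barcode sequences occurred in both. After filtering, 8065 flox and 6984 cKO cells were kept. With 1 library per group no test was possible, genotype and library preparation cannot be told apart, and intervals and limits cover the error of counting alone.

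Hilpda itself was read first, as the targeted gene. Levels are given as CPM, the UMIs of a gene over those of its class and library on the usual per-million scale. Hilpda stood at 473 CPM in flox and 269 in cKO among cells classed as monocyte or macrophage-like. In microglia-like cells the order was the opposite, with 104 CPM in flox and 239.8 in cKO. The counted 3′ tags may lie outside the deleted part, so these levels do not check the labels.

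Ribosomal proteins are built into the small and large ribosomal subunits, most of them in equal parts, next to the ribosomal RNAs. Their mRNAs are among the most abundant of any cell, and most begin with a C followed by a run of pyrimidines, the terminal oligopyrimidine (TOP) motif, through which mTOR signalling and the binding protein Larp1 set their translation. Growing and dividing cells make many ribosomes. Some ribosomal proteins have paralogs, close relatives from a gene duplication, which can replace them in the ribosome, and many have processed pseudogene copies in the genome.

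Transcription start windows are shown because the pyrimidine run is the sequence feature the family is known for. Each line gives 30 bases around a RefSeq start on GRCm38.p6, 15 before it and 15 from it on, with a C followed by at least 5 further C or T bases in capitals. Rplp0 is shown as a window in which this search found no run.

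Rps27 (chr3:90213634-90213663, minus strand): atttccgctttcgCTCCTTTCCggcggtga
Rps9 (chr7:3704026-3704055, plus strand): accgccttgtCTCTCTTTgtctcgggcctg
Rpl13a (chr7:45128731-45128760, minus strand): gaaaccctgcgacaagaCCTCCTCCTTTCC
Rpl18 (chr7:45718056-45718085, plus strand): tgcgtctcgcaggccgCTCTTTCCCCgccc
Rplp2 (chr7:141447636-141447665, plus strand): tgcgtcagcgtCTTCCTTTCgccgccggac
Rpl22l1 (chr3:28805493-28805522, plus strand): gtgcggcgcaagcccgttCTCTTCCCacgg
Rpl39l (chr16:10170213-10170242, plus strand): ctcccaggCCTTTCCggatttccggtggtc
Rplp0 (chr5:115559452-115559481, plus strand): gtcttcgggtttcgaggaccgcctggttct

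RefSeq start windows were found for 61 of the 81 genes, and 36 of these (59.0%) held such a run on the sense strand in at least 1 window. Of 27025 genes with a window of the same length, 25.5% did. Paralogs and canonical genes alike are among those shown with a run. A match describes letters in a window and is not a mapped start.

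Cells were grouped by clustering on genes other than the ribosomal ones, and clusters were named from marker genes. In all, 16 classes had at least 30 cells in each library and 9 had at least 100, and only these 9 were compared gene by gene. Cluster 10 is called by its number. It was led by the antigen-presentation genes H2-Ab1, H2-Aa, H2-Eb1 and Cd74, and all 10 dendritic cell markers were detected in it, summing to 0.254% of its UMIs in flox and 0.248% in cKO. Monocyte or macrophage markers were as high there, at 0.288% and 0.224%, but reached 0.815% and 0.915% in monocyte or macrophage-like cells. In the other compared classes the dendritic cell sum was at most 0.00693% in flox and 0.00475% in cKO, in endothelial cell-like cells. Among the 50 leading genes of cluster 10, 5 were dendritic cell markers, against 3 of the next list. None of the dendritic cell markers was among its 10 leading genes, while the monocyte marker Plac8 was.

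The share of UMIs on ribosomal protein genes differed between cell types. The highest share was in T or NK cell-like cells, 12.6% in flox and 12.9% in cKO, from 64 and 42 cells. Cluster 10, with 9.90% and 9.99%, and fibroblast-like cells, with 9.54% and 10.1%, came next and changed places between the libraries. Oligodendrocyte precursor-like cells had 7.96% and 8.26%. Of the vessel-wall cells, endothelial cell-like cells had 7.30% and 9.49%, below the precursors in flox and above them in cKO, and mural cell-like cells, which hold pericytes and smooth muscle cells, had 7.0% and 7.48%.

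The main myeloid classes sat close together. Monocyte or macrophage-like cells had 5.55% in flox and 5.67% in cKO, microglia-like cells 5.53% and 5.75%, and cycling microglia-like cells 5.46% and 5.65%. Border-associated macrophage-like cells had 5.18% and 5.19%. Cycling microglia-like cells, which were led by division genes such as Top2a and Cdk1, thus did not exceed the other microglia-like cells in this share. They held more UMIs per cell, and the median cell had 814.5 ribosomal protein UMIs in flox and 1060.0 in cKO, against 447 and 707 in microglia-like cells.

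The lowest shares were in neutrophil-like cells, 3.54% and 3.56%, and in choroid plexus epithelial cell-like cells, 2.91% and 3.20%. In the choroid plexus class the transthyretin gene Ttr alone took 13.2% of UMIs in flox and 12.5% in cKO. When mitochondrial UMIs and the 10 most abundant other genes of each class were left out of the total, its shares became 4.71% and 5.07%, and those of neutrophil-like cells 4.06% and 4.07%, the lowest of the 9 compared classes in both libraries. Neutrophil-like cells were shallow, with medians of 1067 and 1294 UMIs per cell. Among the compared classes the share ran 2.80-fold from neutrophil-like cells to cluster 10 in flox and 2.81-fold in cKO. In cells of 3000 to 10000 UMIs, where no neutrophil-like class was left, it ran 1.86-fold and 2.05-fold, from oligodendrocyte-like cells.

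**Figure D1:**
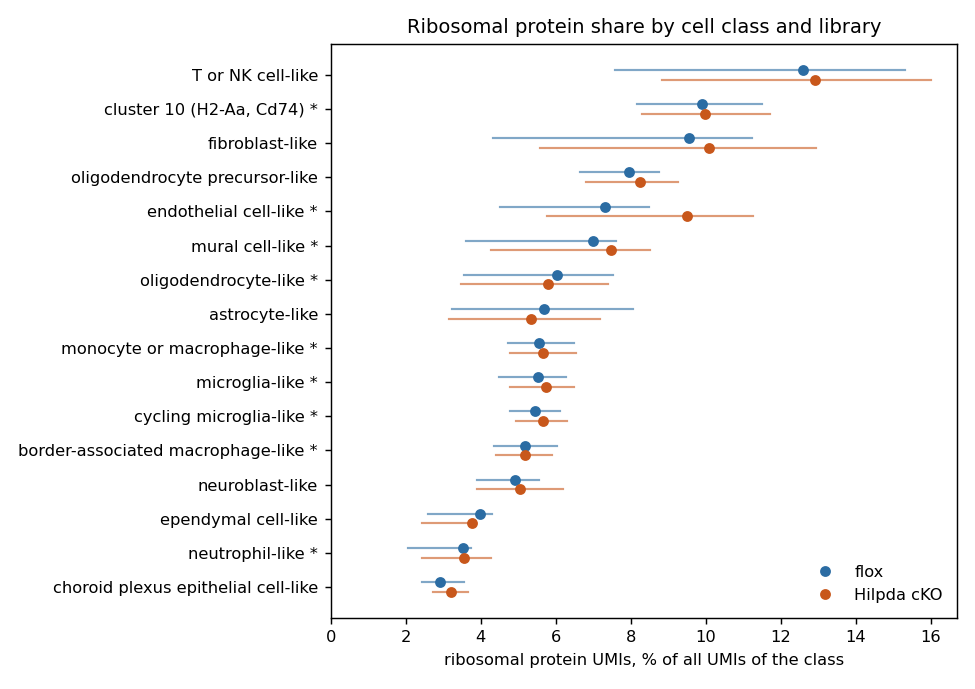
Share of UMIs on the 81 ribosomal protein genes (x axis, percent) in 16 classes, with flox in blue and Hilpda cKO in orange. Points are the share of the summed UMIs of a class and lines run from the lower to the upper quartile over its cells, which are not replicates; asterisks mark the 9 compared classes, and the endothelial cell-like pair, 7.30% and 9.49%, stands farthest apart among them.

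Classes were not uniform inside. Within oligodendrocyte-like cells, cluster 9 had 6.56% and 6.31%, while cluster 20, which had the myelin genes Mag and Mobp among its leaders, had 1.96% and 1.90% from 61 and 53 cells. Both clusters had the myelin gene Cldn11 among their leaders. Within monocyte or macrophage-like cells, cluster 6, which shared the class II antigen-presentation genes with cluster 10, had 7.14% and 7.23%. The other 4 macrophage clusters lay between 4.99% and 5.83%, including cluster 0, the largest of the class in flox (1256 cells), and cluster 1, the largest in cKO (928 cells).

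Gene by gene, cluster 10 was high and the neutrophil-like class low for most of the family, while the endothelial and mural classes passed the fold for few genes. A gene was counted as higher or lower in a class when its CPM was at least 1.5-fold from the median of the 9 classes in the same direction in both libraries. In cluster 10, 58 of 81 genes were higher, 31 of the large and 27 of the small subunit, where 12.8% of all genes tested were. The median ribosomal protein gene was 0.76 above the median class on the log2 scale in flox and 0.77 in cKO. In neutrophil-like cells 47 of 81 genes were lower, where 18.5% of all genes tested were, and 0 higher, against 23.4%. There the median gene stood at −0.78 and −0.76. Endothelial cell-like cells had 14 genes higher, against 21.2% of all genes, and 0 lower, against 18.9%. Mural cell-like cells had 6 higher, against 25.1%, and 0 lower, against 10.5%. Rpl39l was the 1 gene lower in cluster 10, from 1 UMI in each library, where 16.4% of all genes were lower.

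The remaining classes hardly left the middle. Monocyte or macrophage-like cells had 0 genes higher and 2 lower, against 8.08% and 20.5% of all genes tested. Microglia-like cells had 1 higher and 0 lower, against 8.12% and 11.3%, and cycling microglia-like cells 1 and 0, against 11.6% and 11.4%. In both the gene was Rpl39l. Oligodendrocyte-like cells had Rps3 higher and Rpl39l lower, 1 each way, against 32.4% and 17.7%. Border-associated macrophage-like cells had 0 either way, against 11.1% and 7.93%.

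The genes were also set against the rest of the family. For this the level of each gene was divided by that of the median ribosomal protein gene of the same class and library. The range of this relative level over the 9 classes, taking the smaller of the 2 libraries, had a median of 0.58 on the log2 scale, which is about the 1.5-fold used here. It was under 1.5-fold for 42 genes and at least 2-fold for 11. A gene under 1.5-fold by this measure can be wider in the other library, as Rpl14 was, with 0.42 in flox and 1.10 in cKO. Among the most even, named after their values were seen, were Rpl26 (0.17 in cKO, 0.34 in flox) and Rpl5 (0.20 and 0.36). Rpl5 is part of the complex that binds Mdm2 when ribosome assembly stalls.

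The mixture within the family was read in neutrophil-like cells, the shallowest of the compared classes. Relative to the median ribosomal protein gene, 3 genes were higher there and 7 lower, where 43.8% and 6.30% of all genes tested were. The division itself shifts these backgrounds, because the median ribosomal protein gene was low in this class and genes outside the family rose against it. The counts can therefore not be judged against them. The higher genes included Rps27 and Rps9, and the 7 lower were Rpl3, Rpl4, Rpl10a, Rpl13a, Rpl22l1, Rpl35 and Rps4x. Rps27 encodes a zinc-finger protein of the small subunit. It made up 4.34% of ribosomal protein UMIs in neutrophil-like cells of flox (389 UMIs) and 4.81% in cKO (734 UMIs), and between 1.31% and 2.94% in each of the other 8 classes. No value of another class overlapped the neutrophil-like pair.

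Rps9, also of the small subunit, took 4.26% and 4.77% in neutrophil-like cells. Cluster 10 came next with 3.32% and 3.78%, and the other 7 classes lay between 1.73% and 2.74%. In cluster 10 Rps9 was the gene that passed the fold upward relative to its family, where 5.46% of all genes did. Rpl39l was the gene that passed it downward, where 48.0% did. The division shifts these backgrounds as well, because the median ribosomal protein gene was high there. Rps27 in cluster 10, relative to the family, was 0.54 above its own median class in flox and 0.56 in cKO on the log2 scale, under 1.5-fold. Rps9 and Rps27 were thus high relative to the family in the class with few ribosomal protein UMIs. Both were also above their own median class in the class with many, Rps27 short of the fold.

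Rpl3, which lies near the peptidyl transferase centre of the large subunit, went the other way. It took 0.402% and 0.236% of ribosomal protein UMIs in neutrophil-like cells, from 36 UMIs in each library, and between 0.613% and 1.09% elsewhere. Rps4x, the X-linked copy of a small-subunit gene, took 0.848% and 0.589% there against 1.44% to 1.95% in the other 8 classes.

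Rpl13a, known in myeloid cells for leaving the ribosome after interferon-gamma to silence inflammatory mRNAs, had only 6 UMIs in flox and 2 in cKO in neutrophil-like cells. It was also lower in the monocyte or macrophage-like class, which had 47.2 CPM in flox and 62.3 in cKO, from 1446 and 1973 UMIs. Microglia-like cells had 98.9 and 132 CPM and oligodendrocyte-like cells 145 and 191. The 2 macrophage values lay below both values of each class outside the neutrophil-like one. Rpl13a and Rpl39l were the 2 ribosomal protein genes lower than the median class in macrophage-like cells.

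Rps29, the gene with the most UMIs of the family (361895 in both libraries), took its greatest part in border-associated macrophage-like cells. There it made up 6.09% and 6.12% of ribosomal protein UMIs, in the main macrophage class 4.95% and 5.08%, and in endothelial cell-like cells 3.02% and 2.96%. Relative to the family it was 0.68 above its median class in flox and 0.51 in cKO on the log2 scale, the latter under 1.5-fold. The next genes by UMIs were Rpl41, Rps13, Rpl23, Rps26 and Rps12, none of which passed the fold relative to the family in any class. In endothelial cell-like cells Rps7 was higher and Rpsa and Rps2 were lower relative to the family, where 11.8% and 35.1% of all genes tested were. These backgrounds, too, are shifted by the division.

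The paralogs were read one by one. Rpl39l, a paralog of Rpl39 best known from the testis, lies on chromosome 16 (chr16:10170226-10174911, plus strand). It had 5.35 CPM in flox and 7.85 in cKO in microglia-like cells, from 77 and 101 UMIs, and 4.70 and 12.5 CPM in cycling microglia-like cells, from 36 and 96. Monocyte or macrophage-like cells, the largest class, had 10 and 24 UMIs, 0.326 and 0.758 CPM. Endothelial cell-like cells stood at 4.64 and 4.11 CPM from 13 and 16 UMIs. It had 0 UMIs in neutrophil-like cells, which at 3 counts allows up to 11.8 CPM in flox and 6.99 in cKO, and 1 or 0 UMIs in each library in oligodendrocyte-like cells and cluster 10.

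Rpl22l1 (chr3:28805436-28807424, plus strand), the paralog of Rpl22, was most abundant in mural cell-like cells, at 312 and 224 CPM, and in endothelial cell-like cells, at 217 and 274 CPM. Neutrophil-like cells had 35.5 and 56.0 CPM from 9 and 24 UMIs. Rps27l, a paralog of Rps27 and a target of p53, stood between 129 and 213 CPM in all classes and both libraries, with no class past the fold relative to the family. Rpl7l1 had 23.7 to 67.3 CPM. Rpl36al, the remaining paralog looked up, falls outside the symbol rule and had 145 and 171 CPM in monocyte or macrophage-like cells.

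**Figure D2:**
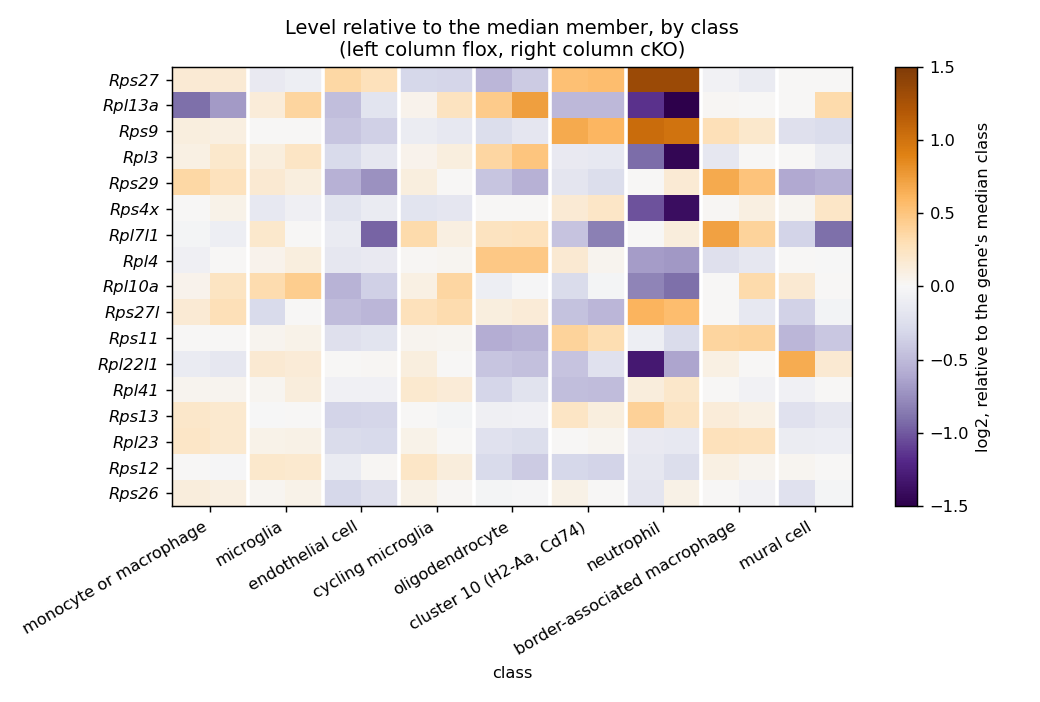
Level of 17 ribosomal protein genes relative to the median ribosomal protein gene, as the log2 difference from the gene's own median class, in 9 classes with flox in the left and cKO in the right column of each pair. Colours end at −1.5 and 1.5; the pair of neutrophil-like columns is darkest, with Rps27 and Rps9 high and Rpl3, Rps4x and Rpl13a low in both libraries.

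Genes outside the family followed it across cell types. Over 18 points, the 9 classes in 2 libraries, which share libraries and totals within each, 8450 genes were ranked by the correlation of their log2 CPM with the mean of the family. The 10 genes most like it included Naca (Pearson r = 0.956), Eef1b2 (0.955), Eif3e (0.949), Rack1 (0.942), Eef1a1 (0.939), Mdp1 (0.930), Eif3f (0.922), Eif3h (0.908) and Sh3bp4 (0.905). Naca binds nascent chains at the ribosome, Eef1a1 and Eef1b2 work in elongation, the Eif3 subunits in initiation, and Rack1 sits on the small subunit. Of the 10 genes, 8 belong to the lists of translation genes. The median r was 0.878 for the family's own genes and 0.074 for all genes ranked.

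Between the libraries, the family as a whole had nearly the same level in each class but endothelial cell-like cells. The median log2 ratio of CPM, cKO over flox, was 0.05 in monocyte or macrophage-like, 0.07 in microglia-like and 0.07 in cycling microglia-like cells. It was 0.03 in cluster 10, 0.01 in border-associated macrophage-like, 0.12 in mural cell-like, −0.01 in neutrophil-like and −0.05 in oligodendrocyte-like cells. The medians of all genes tested in these 8 classes ran from −0.04 to 0.05.

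Within this even picture, 9 genes were far lower in the cKO library in nearly every class. A gene was counted as lower or higher between libraries when the ratio was at least 1.5-fold, the class held at least 50 UMIs of it, and the 95% interval excluded equal levels. Rps19, Rpl18, Rps10, Rpl29, Rpl36, Rpsa, Rplp1, Rpl14 and Rplp2 were lower in at least 5 of the 9 classes, 9 of 81 genes, where 5.06% of 7901 genes tested in enough classes were. Per class the count was 9 of 80 in monocyte or macrophage-like cells, against 8.75% of all genes, and 9 of 81 in microglia-like cells, against 10%. It was 7 of 80 in endothelial cell-like cells against 12.5%, 9 of 81 in cycling microglia-like cells against 9.17%, and 10 of 80 in oligodendrocyte-like cells against 8.46%. Cluster 10 had 9 of 80 against 8.30%, neutrophil-like cells 8 of 75 against 7.88%, border-associated macrophage-like cells 9 of 80 against 7.63%, and mural cell-like cells 9 of 80 against 8.61%. Class by class these counts are near the background, while the count over at least 5 classes was above its own. Being lower in one class after another is the rule that chose the 9 genes, and all classes come from the same pair of libraries. The further lower genes were Rpl8 in oligodendrocyte-like cells (-0.60) and Rpl3 in neutrophil-like cells (-0.76).

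Few genes were higher, and no class but the endothelial one exceeded its background clearly. Monocyte or macrophage-like cells had 1 of 80 genes higher in cKO, where 2.39% of all genes were, microglia-like cells 1 of 81 (3.39%) and cycling microglia-like cells 2 of 81 (2.41%). Oligodendrocyte-like cells had 0 of 80 (3.50%), cluster 10 had 0 of 80 (3.23%) and neutrophil-like cells 2 of 75 (5.92%). Border-associated macrophage-like cells had 1 of 80 (4.06%) and mural cell-like cells 2 of 80 (8.42%).

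Rps19 (chr7:24884371-24889806, plus strand), a small-subunit gene mutated in Diamond-Blackfan anaemia, was the farthest apart. In monocyte or macrophage-like cells it stood at 329.8 CPM in flox and 47.3 in cKO, from 10111 and 1498 UMIs, a log2 ratio of −2.80 (95% interval −2.88 to −2.72). Over the 9 classes it ran from 213 to 535 CPM in flox and from 32.1 to 78.7 in cKO, so the lowest flox class was above the highest cKO class. The median ratio over classes was −2.71, and the ratios lay between −2.90 and −2.50.

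Rpl18 (chr7:45715457-45720836, plus strand), of the large subunit, went from 158 to 564 CPM in flox and from 37.4 to 106 in cKO, with a median ratio of −2.29. Rps10 (chr17:27630418-27636669, minus strand) had a median of −1.92, Rpl29 (chr9:106429454-106431568, plus strand) of −1.87 and Rpl36 (chr17:56613416-56614243, plus strand) of −1.85. For Rpl18, Rps10, Rpl29, Rpl36 and Rplp1, too, every flox class was above every cKO class. Rpl36 was tested in 8 classes and Rpl14 in 8, because neutrophil-like cells held too few UMIs.

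Rpsa (chr9:120127689-120132369, plus strand), a small-subunit protein also known as the laminin receptor precursor, had a median ratio of −1.57, from −1.99 in border-associated macrophage-like cells to −1.02 in endothelial cell-like cells. Rpl14 (chr9:120571444-120574654, plus strand) had a median of −0.83 and passed the fold in 7 of 8 classes. Rps19, Rpl18 and Rplp2 lie on chromosome 7, Rpl29, Rpsa, Rpl14 and Rplp1 on chromosome 9, and Rps10 and Rpl36 on chromosome 17.

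The stalk genes were split. Rplp0 forms the base of the stalk on the large subunit, and Rplp1 and Rplp2 bind to it as dimers and recruit the elongation factors. Rplp1 (chr9:61913284-61914542, minus strand) stood at 1433 CPM in flox and 509 in cKO in monocyte or macrophage-like cells (log2 ratio −1.49, −1.52 to −1.47) and at 1636 and 734 CPM in endothelial cell-like cells. It was lower in all 9 classes. Rplp2 (chr7:141447370-141451585, plus strand) had 488 and 274 CPM in macrophage-like cells (−0.83) and was lower in 8 of 9 classes. Rplp0 (chr5:115559467-115563727, plus strand) had 949 and 825 CPM there (−0.20, −0.23 to −0.18) and was past the fold in none of the 9, with a median ratio of −0.28.

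The last 60 coding bases of the stalk genes are shown because they encode the tail shared by the proteins and because the genes differ so in ratio. They come from the GENCODE vM21 transcripts on GRCm38 and end with the stop codon, and capitals mark the 41 bases that are identical in all 3.

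Rplp0: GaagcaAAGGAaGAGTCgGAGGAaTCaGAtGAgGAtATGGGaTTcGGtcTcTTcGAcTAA
Rplp1: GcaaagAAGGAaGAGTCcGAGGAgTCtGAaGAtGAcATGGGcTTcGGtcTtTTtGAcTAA
Rplp2: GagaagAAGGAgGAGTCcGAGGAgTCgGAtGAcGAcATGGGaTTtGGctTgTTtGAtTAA

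The identical bases of the stalk genes lie in short runs with differing bases between them, not in a single shared stretch. No source used here says whether reads matching several genes were counted once, shared out or dropped. Named ribosomal protein pseudogenes among the features were 8 and held 3741 UMIs, so levels of genes with near-identical copies are uncertain, in both libraries alike.

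In the other direction Rpl7a (chr2:26910764-26913318, plus strand), of the large subunit, was higher in cKO in 6 of 9 classes, where 0.468% of all genes were higher in at least 5. It had 314 CPM in flox and 484 in cKO in monocyte or macrophage-like cells (log2 ratio 0.62, 0.58 to 0.66), from 9639 and 15334 UMIs. In oligodendrocyte-like cells, cluster 10 and neutrophil-like cells its ratios were 0.45, 0.44 and 0.40, short of the fold. In cells of 3000 to 10000 UMIs it passed in fewer than 5 classes. Rpl39l was higher in cycling microglia-like cells (log2 ratio 1.40).

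As a sum the 9 lower genes made up 6.41% of ribosomal protein UMIs in flox and 2.16% in cKO in monocyte or macrophage-like cells. The remaining genes made up slightly more of all UMIs in cKO, 5.20% and 5.54%. In oligodendrocyte-like cells the family share was 6.05% in flox and 5.79% in cKO, and the remaining genes had 5.61% and 5.64%. The median log2 ratio of these remaining genes was −0.03, with 31 of 71 above 0. Because the 9 genes were chosen for being lower in these same sums, leaving them out raises the ratio of the rest by construction.

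**Figure D3:**
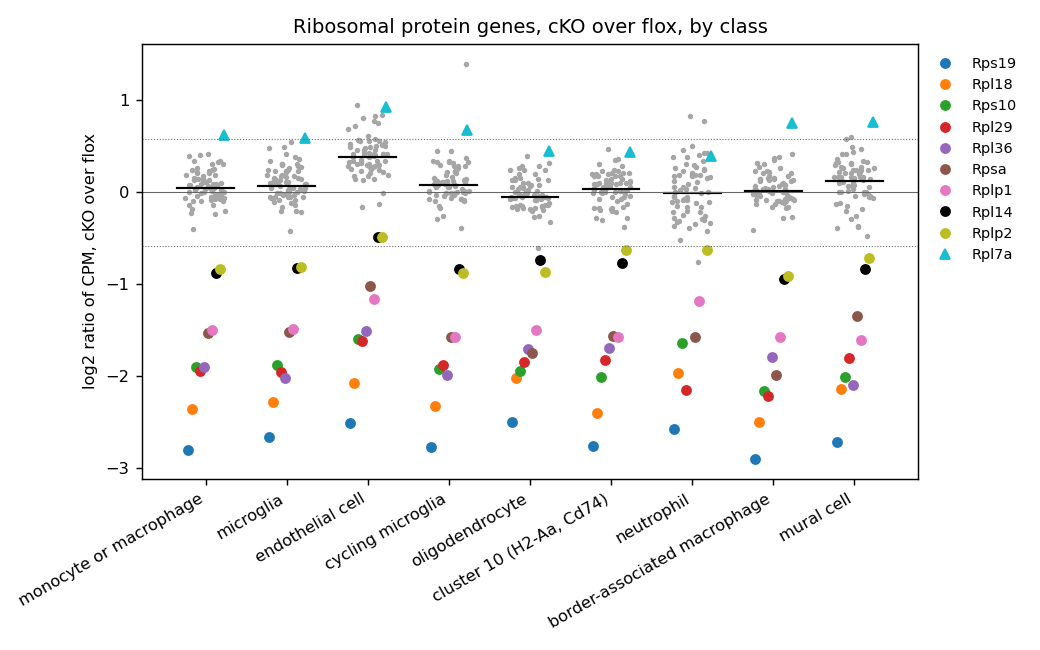
Log2 ratio of CPM, cKO over flox, of each ribosomal protein gene with at least 50 UMIs in the class (grey points, with the median as a black bar) in 9 classes; dotted lines mark 1.5-fold. The 9 lower genes, Rps19 to Rplp2, are marked and reach down to −2.90 for Rps19, the triangle is Rpl7a, and the endothelial cell-like median of 0.38 lies above the others.

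GC content at the 3′ end, where this assay counts, moved with these ratios in part. The 9 lower genes had a median GC content of 55.6% over the last 500 nt of the transcript (45.4% to 60.8%) and the other 72 genes 48.2% (34.4% to 57.8%). Of the 9 ribosomal protein genes at 55% GC or more, 5 were lower and 4, Rps15, Rpl8, Rpl35 and Rpl41 with median ratios of −0.20, −0.39, 0.39 and 0.25, were not. Rpsa, at 45.4%, was lower with a GC content below the family's middle. Across the 81 genes, which are not independent replicates, Pearson's r between GC content and median ratio was −0.37 and Spearman's rho −0.06. Among all genes tested, 35.4% of the 625 with at least 55% GC were lower in at least 5 classes, against 2.46% of the other 7273. The part of base composition or of library preparation in the lower genes was not tested.

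**Figure D4:**
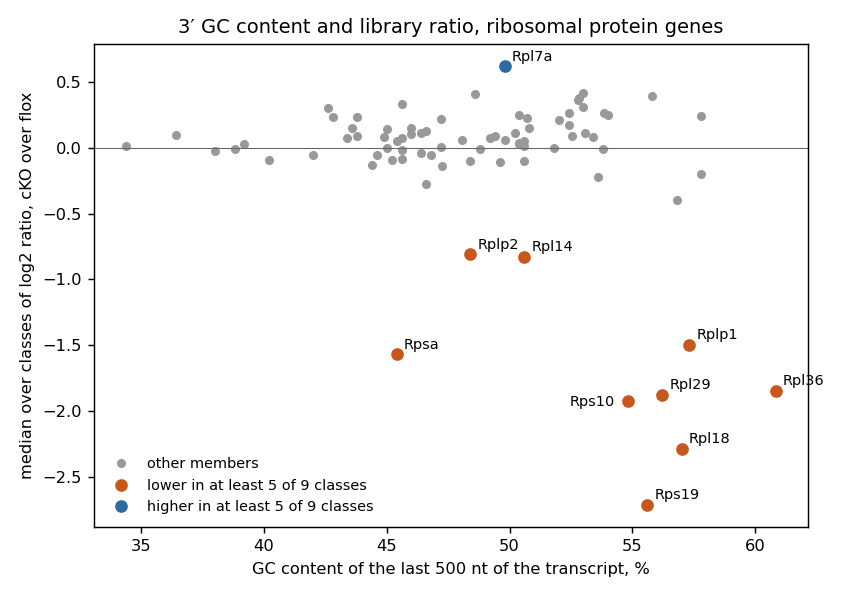
GC content of the last 500 nt of the transcript (x axis, percent) against the median over classes of the log2 ratio, cKO over flox (y axis), for 80 ribosomal protein genes; Rpl39l, tested in 2 classes, is not drawn. Orange points are the 9 lower genes, 6 of them between 54.8% and 60.8% GC with Rpsa at 45.4% standing apart, and the blue point is Rpl7a at 0.62.

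Endothelial cell-like cells differed from the other classes. The median ribosomal protein gene was 0.38 higher in cKO on the log2 scale, while the median of all 8688 genes tested was −0.10. Of 80 genes, 68 were above 0 and 10 passed the fold upward, where 3.22% of all genes did. The 10 held 4 canonical large-subunit and 6 small-subunit genes, and those with the largest ratios, named after their values were seen, were Rpl35 (0.95), Rpl7a (0.93), Rps2 (0.84) and Rpl13a (0.83). With library totals rescaled by the trimmed mean of M-values (TMM), which moved the all-gene median of this class by 0.14, the family median was 0.52 and 27 genes passed, where 6.17% of all genes did. TMM shifts every gene of a class by the same amount, so the gap of 0.48 between the family and the all-gene median stays as it is by construction.

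The endothelial difference was smaller within a cluster and within a range of depth. The class was made of cluster 7, with Ly6c1, Tm4sf1 and Cldn5 among its leaders, and cluster 14, with Slco1a4, Flt1 and Abcb1a. Cluster 7 had 8.21% and 9.98% ribosomal protein UMIs and cluster 14 had 5.31% and 5.82%. Cluster 7 held 327 of the flox and 441 of the cKO cells, and cluster 14 held 235 and 97. The median log2 ratio was 0.27 within cluster 7, with 9 genes higher (3.22% of all genes), and 0.14 within cluster 14, with 1 higher (3.54%). Depth also moved with the group, with medians of 3932 and 5600 UMIs per endothelial cell-like cell in flox and cKO.

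Among endothelial cell-like cells of 3000 to 10000 UMIs, 274 in flox and 199 in cKO, the shares were 7.23% and 7.86% and the median ratio 0.14. Only 2 genes then passed upward, where 2.76% of all genes did. Within that range of depth it was 0.08 in cluster 7 and 0.07 in cluster 14, with 1 gene passing upward in each, where 3.78% and 4.45% of all genes did. Lower genes, 7 in the whole class, numbered 9 in that range of depth (9.01% of all genes), 8 within cluster 7 (9.67%), 9 within cluster 14 (7.76%), and in the range of depth 9 within cluster 7 (7.71%) and 8 within cluster 14 (6.68%). Microglia markers summed to 0.823% of UMIs in endothelial cell-like cells of flox and 1.09% in cKO, with none of the 11 at 0. Nearly all of that sum was Sparc, at 0.777% and 1.06%, which was also among the most abundant genes of the endothelial class. The sum is therefore not a measure of microglial RNA there. The endothelial markers of the class itself went from 1.97% to 1.52%, pericyte markers from 0.0157% to 0.0067% and interferon-induced genes from 0.0493% to 0.0139%. The endothelial sum was uneven over its 10 markers. Cldn5 went from 3289 CPM in flox to 592 in cKO, and Flt1, Slco1a4 and Itm2a were lower as well. Pecam1 went up from 1554 to 1934 CPM, and Ly6c1 and Kdr were also higher in cKO. The part of these differences in the result was not tested.

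**Figure D5:**
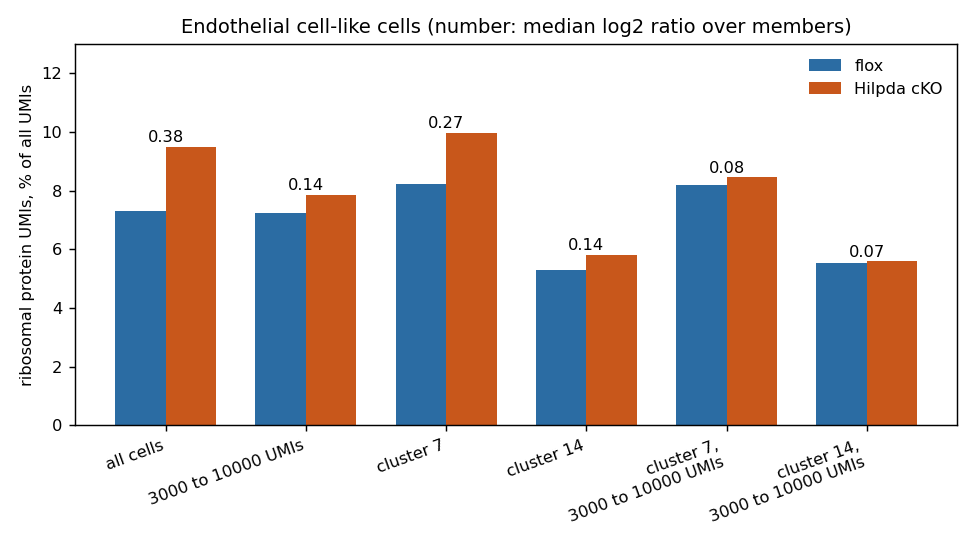
Share of UMIs on ribosomal protein genes (y axis, percent) in endothelial cell-like cells of flox (blue) and cKO (orange), for all cells, for each cluster and for cells of 3000 to 10000 UMIs. The number above each pair is the median log2 ratio over the genes, which falls from 0.38 in all cells to 0.08 and 0.07 within a cluster and a range of depth.

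Other genes of the ribosome and its control were read from lists. Ubiquitin or ubiquitin-like fusions and Rack1 comprised 4 genes. Fau, which encodes a small-subunit protein fused to a ubiquitin-like protein, was lower in cKO in each of the 9 classes as the only gene of that list, with 299.8 and 139.9 CPM in monocyte or macrophage-like cells (−1.10). Rack1 stood at 481 and 514 CPM there, and Rps27a, a ribosomal protein by symbol, at 787 and 787.

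Of 18 translation factors with TOP mRNAs, 0 were higher and 1 lower in monocyte or macrophage-like cells, where 2.39% and 8.75% of all genes were, with a median ratio of 0.04. Tpt1, the most abundant of them, had 5263 and 6349 CPM (0.27) and Eef1a1 4940 and 4440 CPM (−0.15). In endothelial cell-like cells 0 of 18 were higher and 1 lower, where 3.22% and 12.5% of all genes were, with a median of 0.19, and Eef1b2 had 645 and 891 CPM (0.47).

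Of 28 ribosome biogenesis factors, which build the subunits in the nucleolus, 0 were higher and 2 lower in monocyte or macrophage-like cells, against the same 2.39% and 8.75%, with a median ratio of 0.20. Ncl, the nucleolar protein nucleolin, had 225 and 325 CPM (0.53), under the fold. Their share of UMIs was highest of the 9 classes in oligodendrocyte-like cells, 0.219% and 0.242%, where the ribosomal protein share was 6.05% and 5.79%. The biogenesis and ribosomal protein shares thus gave different orders of the cell types.

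Of 15 genes of mTOR and the control of TOP mRNAs, 1 was higher and 3 lower in monocyte or macrophage-like cells, against 2.39% and 8.75% of all genes, with a median of 0.04. In microglia-like cells 1 was higher and 6 lower, against 3.39% and 10%, with a median of −0.02. Larp1, which binds the TOP motif, had 127 and 94.4 CPM in macrophage-like cells (−0.43), and the scaffold Eif4g1 188 and 99.7 CPM (−0.92). Of 75 mitochondrial ribosomal proteins, 74 were tested in macrophage-like cells, with 4 higher and 4 lower, against 2.39% and 8.75% of all genes, and a median of 0.18. In endothelial cell-like cells 70 were tested, with 9 higher and 3 lower, against 3.22% and 12.5%, and a median of 0.17, where that of all genes was −0.10.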

How the data were processed

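Values were whole-number UMI counts per gene and barcode as the authors deposited them. The submitters' processing notes name CASAVA 1.8, STARsolo and Seurat and the build mm10. No source used here names the gene annotation or how reads matching several genes were counted. Each library was filtered here to barcodes with at least 500 UMIs, 200 genes and at most 25% mitochondrial UMIs. Doublets called by scrublet (210 flox, 142 cKO) were removed.

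Clusters came from 2000 variable genes without ribosomal, mitochondrial, haemoglobin or sex-linked genes and Hilpda, 30 principal components, 20 neighbours and Leiden resolution 1 (scanpy 1.11.5, leidenalg 0.10.2, Python 3.11.15). Of 26 clusters, 25 were named where at least 3 markers were among the 50 leading genes. These naming thresholds were set after the clusters were seen. Cells of most macrophage clusters are pooled in 1 class. UMIs were summed per class and library, and CPM ratios used a prior count of 0.5. Intervals are exact 95% binomial intervals. TMM came from edgeR 4.0.16 in R 4.3.3. Scripts were tested on simulated data.

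The members and lists were chosen with earlier results of these data known. Named genes were those past the fold in at least 5 of 9 classes, those with the widest relative range, the paralogs, the 6 with most UMIs and the leading genes of each other list. Some genes that this rule or a list would name are not reported here.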

Additional observations from a re-analysis of the deposited data

How the results depend on the processing

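No test was run, since each group is 1 library. No paired analysis was possible because there is only 1 library in each group. The endothelial cell-like median log2 ratio, 0.38, was 0.36 at Leiden resolution 0.5, 0.43 with at most 10% mitochondrial UMIs, 0.37 with cells classed by markers alone, 0.52 with TMM and 0.14 in cells of 3000 to 10000 UMIs, an alternative chosen after seeing the data. The median over classes, 0.05, was 0.035 in that range, 0.064 with equally weighted cells and 0.089 with TMM. The 9 genes lower in at least 5 of 9 classes were 7 at 2-fold. The single higher gene became 0 at 2-fold and 0 in cells of 3000 to 10000 UMIs.

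The 58 genes higher in cluster 10 became 11 at 2-fold and 1 relative to the family median, and the 47 lower in neutrophil-like cells became 18 and 7. Dividing by the family median takes out the level of the whole family, so the counts of 1 and 7 answer a different question. The 2.80-fold range of shares in flox was 2.88 at resolution 0.5, 2.87 at resolution 2, 2.64 with at least 1000 UMIs, 2.56 with doublets kept, 3.08 with cells classed by markers alone, 3.14 with equally weighted cells and 2.97 without mitochondrial UMIs and the 10 most abundant other genes, also chosen after seeing the data. In cKO, 2.81-fold, it was 2.67 with doublets kept, 3.14 by markers alone, 2.89 with equally weighted cells and 3.04 without those UMIs. The cause was not tested. By markers alone, 69.8% of kept cells got the class of their cluster. It was 98.0% of endothelial cell-like cells, 62.3% of monocyte or macrophage-like cells and 54.4% of cluster 10, there as dendritic cell-like. Border-associated macrophage-like cells then numbered 1634 rather than 376, and microglia-like cells 5109 rather than 2604. Cycling microglia-like cells were not formed at resolution 0.5 or by markers alone, nor neutrophil-like cells in the range of 3000 to 10000 UMIs. Over the 8 classes left in that range, with oligodendrocyte-like cells lowest, the shares ran 1.86-fold in flox and 2.05-fold in cKO.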
